A study of Homo sapiens with 4 samples.

Results

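The RAS and RAF genes measured here are HRAS, NRAS, RRAS, RRAS2 and MRAS, which encode small GTPases of the RAS family, the kinase genes ARAF and BRAF, and NF1, which encodes neurofibromin, a protein that switches RAS off. They were chosen by gene symbol, and 8 rows of the 62893 genes in the count table matched, 1 for each gene. The table comes from poly(A) RNA of T24 cells, an established human line from a bladder carcinoma, treated with siRNA against NSUN2 (siNSUN2, n = 2 libraries) or with control siRNA (siControl, n = 2). NSUN2 encodes an RNA methyltransferase that places 5-methylcytosine on tRNAs and other RNAs. The labels give no siRNA sequence, dose or time and do not say whether replicates were separate cultures, so p-values cover only the scatter among the libraries, which may be purely technical.

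RAS proteins cycle between an inactive form bound to GDP and an active form bound to GTP. Exchange factors load GTP, and GTPase-activating proteins such as neurofibromin speed its hydrolysis. Active RAS recruits RAF kinases to the membrane, and RAF starts the cascade through the kinases MEK and ERK. T24 is the line from which a mutant, activated HRAS oncogene was cloned, and RAS signalling in it does not depend on growth factors alone. The counts carry no allele information, so the HRAS allele behind the transcripts was not read from them.

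The libraries held 33633249 to 215936965 counts, so that 1 CPM (a count scaled to library size, here with TMM factors) stood for about 33.6 to 216 counts. The keratin genes KRT8 and KRT18, marks of epithelial cells, stood at 459 to 633 CPM in every library, but 3 of 6 epithelial markers, CDH1, EPCAM and KRT19, stayed under 0.1 CPM. Of 9 urothelial markers, PPARG (22.5 to 23.5 CPM in siNSUN2, against 13.7 to 14.4 CPM in siControl), FOXA1 and UPK1B passed 1 CPM in every library, and UPK3A had 0 counts. The summed mesenchymal markers were high, at 2534 and 2522 CPM in siNSUN2, against 1537 and 1565 CPM in siControl, with VIM at 1770 and 1760 CPM, against 1020 and 1050 CPM. The targeted transcript stood at 29.6 and 30.1 CPM in the siNSUN2 libraries and at 281 and 284 CPM in the siControl libraries (log2 fold change −3.24, SE 0.043, edgeR adjusted p = 1.64e-09). Summed markers of endothelial cells ran from 2.37 to 10.6 CPM in siNSUN2 and from 0.395 to 0.635 CPM in siControl, with PECAM1 at 0, and those of leukocytes from 1.4 to 1.96 CPM in siNSUN2 and from 0.682 to 0.941 CPM in siControl. The part of these marker differences in the results was not tested.

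Most RAS and RAF transcripts measured were more abundant in siNSUN2 than in siControl libraries. Of the 8 genes, all of which passed the low-count filter, 6 rose, 0 fell and 2 missed the threshold. Among all 16889 genes tested, 27.1% rose and 25.5% fell, 52.6% in all (edgeR's quasi-likelihood test, Benjamini-Hochberg adjusted p under 0.05). The largest rise was 2.65-fold, for RRAS, and the other 5 lay between 1.11-fold and 1.47-fold. The median log2 fold change was 0.37 over the 8 genes and 0.026 over all genes tested. For each of the 8, both siNSUN2 libraries lay above both siControl libraries, as for 38.6% of all genes tested. The group as such was not tested, and these genes were chosen with earlier results of the same data known.

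**Figure D1:**
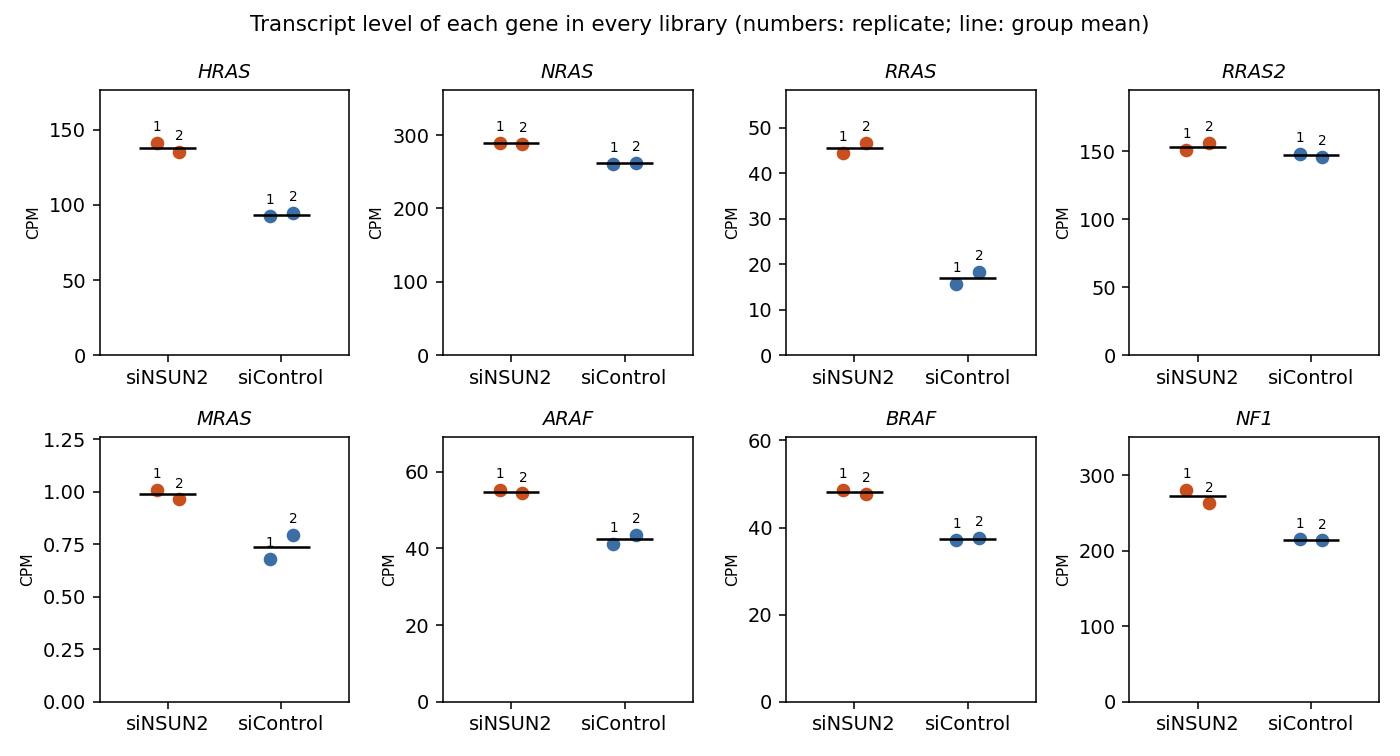
Transcript level of the 8 genes, in CPM scaled by TMM factors (linear axes from 0), in the siNSUN2 libraries on the left and the siControl libraries on the right of each panel. Points are libraries, numbered by replicate, and lines are group means. RRAS shows the largest ratio between the groups, with 44.4 and 46.6 CPM in siNSUN2 against 15.7 and 18.4 CPM in siControl.

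HRAS (ENSG00000174775, chromosome 11), the RAS gene that is mutated in T24 cells, had 141 and 135 CPM in the siNSUN2 libraries, against 92.6 and 94.5 CPM in the siControl libraries. The groups did not overlap, and the gap between them was several times the spread within either. The rise was 1.47-fold (95% interval 1.38 to 1.58, log2 fold change 0.56, SE 0.043, edgeR adjusted p = 5.15e-06). It depended on how base composition was treated. The HRAS transcript is 65.8% G and C, and when smooth trends of the counts on GC content and length were removed within every library (GC correction) its log2 fold change was −0.07 (SE 0.033, edgeR adjusted p = 0.106).

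NRAS (ENSG00000213281, chromosome 1), the closest relative of HRAS measured here, had the highest CPM of the 8 genes. It had 289 and 288 CPM in siNSUN2, against 261 and 262 CPM in siControl. The gap between the groups was far wider than the spread within either. Its rise was small, 1.11-fold (95% interval 1.04 to 1.17, log2 fold change 0.14, SE 0.037, edgeR adjusted p = 0.0091). Without siControl replicate 1 the log2 fold change was 0.07 and the call was lost (edgeR adjusted p = 0.271), in a fit where the median of all shared genes moved by −0.067. The NRAS transcript is 38.4% G and C, and the GC correction raised its log2 fold change to 0.40 (edgeR adjusted p = 2.98e-05).

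CPM does not rank genes of different length, so levels were also computed per length, as TPM. For TPM, counts are divided by the length of the longest coding transcript before scaling. On that scale HRAS led in both groups, with a level of 287 ± 1.8 TPM in siNSUN2 and 194 ± 0.48 TPM in siControl (SD, n = 2 each). RRAS2 followed at 194 ± 9.1 and 185 ± 4.4 TPM, and NRAS at 167 ± 3.7 and 150 ± 2.0 TPM. With the union of all annotated exons as the length, NRAS came first in siControl, at 228 ± 2.7 TPM, above HRAS at 196 ± 0.21 TPM, so the order of these genes rests on the length chosen. HRAS stayed first in siNSUN2 under both lengths, but the TPM values carry no GC correction. After that correction, the log2 fold change was −0.07 for HRAS and 0.40 for NRAS.

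RRAS (ENSG00000126458, chromosome 19) encodes R-Ras, a GTPase known for its effect on integrin-mediated adhesion. It had 44.4 and 46.6 CPM in siNSUN2, against 15.7 and 18.4 CPM in siControl. The counts behind these values were 4076 and 1597 in siNSUN2 and 668 and 3918 in siControl. The rise was 2.65-fold (95% interval 2.32 to 3.02, log2 fold change 1.41, SE 0.081, edgeR adjusted p = 4.57e-06). Of all 4573 genes that rose, 428 rose by more. RRAS is 63.5% G and C, and its log2 fold change was 0.88 (edgeR adjusted p = 0.00149) after the GC correction, the largest of the 8 in that fit as well.

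RRAS2 (ENSG00000133818, chromosome 11) encodes TC21, which shares effectors with the classical RAS proteins. It had 151 and 156 CPM in siNSUN2, against 148 and 146 CPM in siControl, so the groups nearly touched. The difference did not pass the test (log2 fold change 0.07, edgeR adjusted p = 0.198), and its 95% interval ran from 0.984-fold to 1.12-fold. The RRAS2 transcript is the poorest in G and C of the 8, at 35.9%. After the GC correction, it rose, with a log2 fold change of 0.36 (SE 0.035, edgeR adjusted p = 0.000122). A pseudogene, RRAS2P1, had 5.01 and 3.21 CPM in siNSUN2 and 4.73 and 3.69 CPM in siControl. The reads assigned to it were few beside those of RRAS2. These values do not tell how many reads match both genes or how such reads were counted.

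MRAS (ENSG00000158186, chromosome 3) encodes a GTPase that, with SHOC2 and a protein phosphatase subunit, activates RAF kinases. It was close to the limit of detection in T24 cells, with 93 and 33 counts in siNSUN2, which is 1.01 and 0.964 CPM, against 29 and 169 counts in siControl, which is 0.682 and 0.795 CPM. The groups did not overlap. At this depth the 95% interval of the fold ran from 0.836 to 2.12 and the difference did not pass the test (log2 fold change 0.41, SE 0.3, edgeR adjusted p = 0.287).

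The make-up of the RAS GTPase transcripts shifted with these changes. Over the 5 GTPase genes, the summed level per length was 748 and 773 TPM in siNSUN2, against 573 and 569 TPM in siControl. RRAS made up 14.3% and 15.1% of that sum in siNSUN2, against 6.8% and 7.83% in siControl, and its share was higher in both siNSUN2 libraries. The share of HRAS was 38.5% and 36.9% in siNSUN2, against 33.9% and 34.0% in siControl. NRAS and RRAS2 held smaller shares in siNSUN2: NRAS had 21.9% in each library, against 26.5% and 26.1% in siControl, and RRAS2 had 25.1% and 26.0%, against 32.8% and 31.9%. MRAS stayed under 0.08% in every library. The shares carry no GC correction. After it, the log2 fold change of HRAS (−0.07) lay below those of NRAS (0.40) and RRAS2 (0.36), whereas without it HRAS (0.56) lay above both (0.14 and 0.07), so the direction of these shifts in share rests on that setting; RRAS had the largest change either way. These shares are descriptions of 4 libraries, since 2 against 2 allows no permutation test that could pass 0.05.

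**Figure D2:**
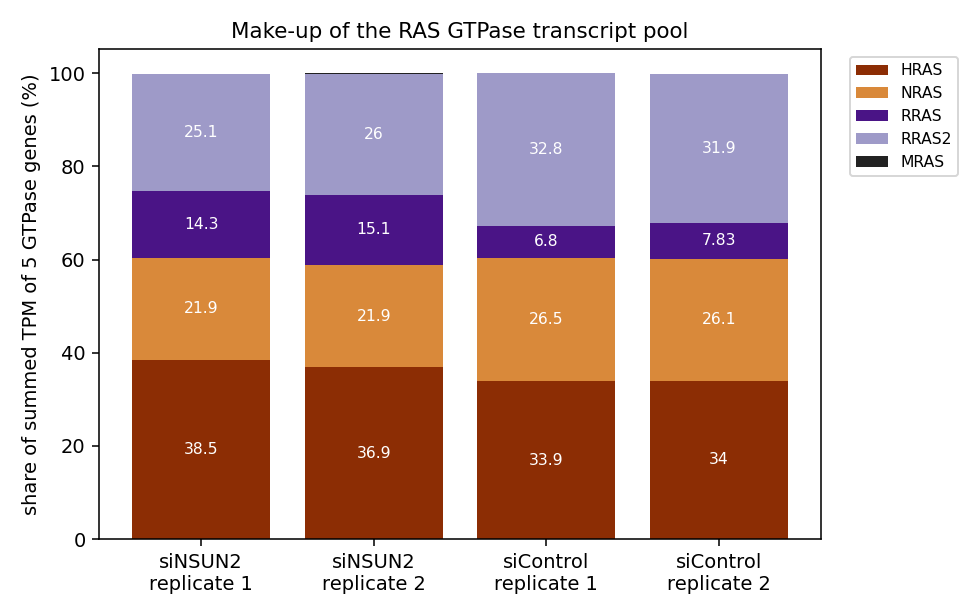
Share of each gene in the summed TPM of the 5 RAS GTPase genes (vertical axis, percent; lengths from the longest coding transcript), with the siNSUN2 libraries left and the siControl libraries right. The RRAS segment is 14.3% and 15.1% of the bar in siNSUN2 and 6.8% and 7.83% in siControl; MRAS is too small to see.

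ARAF (ENSG00000078061, X chromosome) encodes the RAF kinase with the weakest basal activity towards MEK. It had 55.3 and 54.3 CPM in siNSUN2, against 41.2 and 43.6 CPM in siControl. The rise was 1.29-fold (95% interval 1.20 to 1.39, edgeR adjusted p = 0.000137). ARAF is 58.9% G and C, and like HRAS it was no longer called after the GC correction (log2 fold change 0.045, against 0.37 before, edgeR adjusted p = 0.41).

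BRAF (ENSG00000157764, chromosome 7) encodes the RAF kinase with the strongest activity towards MEK. It had 48.7 and 47.7 CPM in siNSUN2, against 37.2 and 37.6 CPM in siControl. Its rise was also 1.29-fold (95% interval 1.20 to 1.38, log2 fold change 0.37, SE 0.045, edgeR adjusted p = 0.000109). BRAF is 40.0% G and C, and the change was larger after the correction, at 0.53 (edgeR adjusted p = 4.06e-05). Per length, ARAF exceeded BRAF by 4.34 and 4.35 times in siNSUN2 and by 4.24 and 4.43 times in siControl, and these ratios overlapped between the groups. With the union of exons as the length they were 7.53 and 7.55 in siNSUN2 and 7.35 and 7.68 in siControl, so their size rests on the length chosen. The overlap of these ratios was read without the GC correction. After it, the log2 fold change was 0.045 for ARAF and 0.53 for BRAF, against 0.37 for each before. In GENCODE release 29, exons of BRAF overlap 1239 bases of NDUFB2, a gene on the other strand that had 95.0 and 87.4 CPM in siNSUN2 and 76.4 and 73.8 CPM in siControl. The strand setting of the authors' counting is not given in the sources used here, so reads from that overlap cannot be assigned with certainty.

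NF1 (ENSG00000196712, chromosome 17), the antagonist of RAS in this group, had 281 and 263 CPM in siNSUN2, against 215 and 214 CPM in siControl. The rise was 1.27-fold (95% interval 1.18 to 1.35, log2 fold change 0.34, SE 0.043, edgeR adjusted p = 0.000134), and it was 0.45 on the log2 scale after the correction (edgeR adjusted p = 4.38e-05). The level of NF1 per length, set against the sum of HRAS and NRAS, was 0.126 and 0.122 in siNSUN2 and 0.13 and 0.127 in siControl. With the union of exons it was 0.0733 and 0.0705 in siNSUN2 and 0.0731 and 0.0719 in siControl. These ratios carry no GC correction, after which the log2 fold change was −0.07 for HRAS and 0.40 for NRAS. The pseudogenes of NF1 that the table lists by that name had at most 5 counts in a library.

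**Figure D3:**
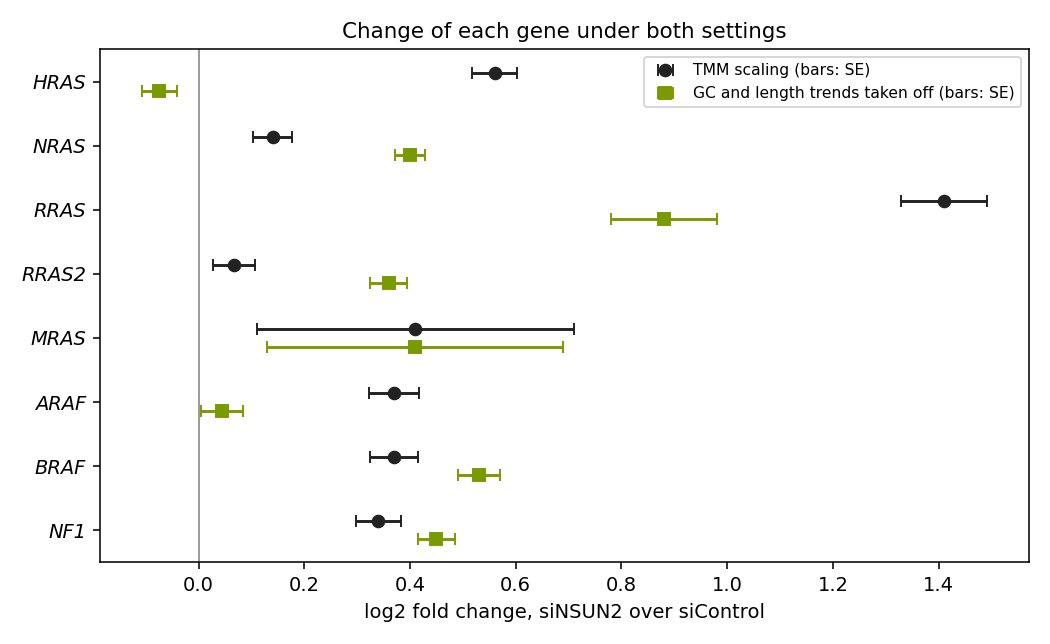
Log2 fold change of each gene, siNSUN2 over siControl (horizontal axis), with TMM scaling alone (black circles) and after the GC correction (green squares). Bars are standard errors; HRAS and ARAF move to −0.07 and 0.045, whereas NRAS, RRAS2, BRAF and NF1 move up and RRAS stays the highest at 0.88.

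The 8 genes differ widely in base composition. The quintile of tested genes richest in G and C holds HRAS, RRAS and ARAF, and 58.0% of its 3257 genes rose (median log2 fold change 0.51). The poorest quintile holds NRAS, RRAS2 and BRAF, and 13.0% of its 3259 genes rose while 46.1% fell (median −0.22). NF1 lies in the next quintile, where 13.9% of genes rose and 36.1% fell, and MRAS in the middle one. NRAS, BRAF and NF1 rose in quintiles where more genes fell than rose. After the GC correction, 5 of the 8 genes rose (NRAS, RRAS, RRAS2, BRAF and NF1) and 0 fell, against 24.2% and 23.3% of all genes in that fit. The origin of the trend on GC content was not tested.

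**Figure D4:**
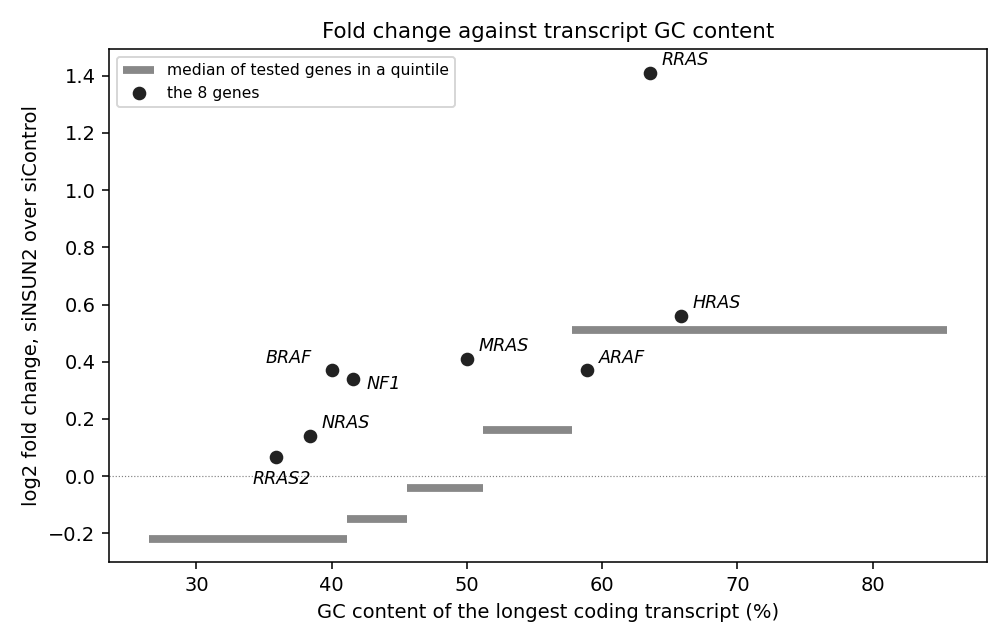
Log2 fold change, siNSUN2 over siControl (vertical axis), against the GC content of the longest coding transcript (horizontal axis, percent). Points are the 8 genes and grey bars are the medians of all tested genes in 5 quintiles of GC content, which run from −0.22 to 0.51; HRAS and ARAF lie near the bar of their quintile, and the other 6 lie above theirs, MRAS with a standard error of 0.3.

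Without the GC correction, HRAS, NRAS, ARAF and BRAF rose, though their transcripts differ in base composition. With it, HRAS and ARAF were not called. The promoters of this classical RAS pair and this RAF pair are shown, as a choice among the genes that rose. Each is the 250 bases before the annotated start, from RefSeq on GRCh38.p14, 5′ to 3′, with GC boxes (GGGCGG, or CCGCCC on the other strand, which Sp1-type factors can bind) in capitals.
HRAS, chr11:535577-535826, minus strand: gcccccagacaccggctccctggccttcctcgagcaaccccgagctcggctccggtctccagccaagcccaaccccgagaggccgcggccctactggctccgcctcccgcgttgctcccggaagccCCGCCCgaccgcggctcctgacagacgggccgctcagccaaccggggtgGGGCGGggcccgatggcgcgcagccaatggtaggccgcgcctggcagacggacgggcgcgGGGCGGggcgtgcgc
NRAS, chr1:114716772-114717021, minus strand: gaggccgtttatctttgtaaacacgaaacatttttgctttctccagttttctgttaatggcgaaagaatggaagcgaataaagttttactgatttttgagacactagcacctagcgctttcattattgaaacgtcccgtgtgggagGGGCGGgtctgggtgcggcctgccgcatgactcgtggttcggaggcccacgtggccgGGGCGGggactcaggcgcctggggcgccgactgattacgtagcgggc
ARAF, chrX:47560955-47561204, plus strand: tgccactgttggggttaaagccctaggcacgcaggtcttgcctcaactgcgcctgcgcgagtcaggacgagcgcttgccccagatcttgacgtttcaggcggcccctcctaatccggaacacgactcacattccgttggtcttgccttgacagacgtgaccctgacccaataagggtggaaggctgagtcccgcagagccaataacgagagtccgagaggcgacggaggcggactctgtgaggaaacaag
BRAF, chr7:140924269-140924518, minus strand: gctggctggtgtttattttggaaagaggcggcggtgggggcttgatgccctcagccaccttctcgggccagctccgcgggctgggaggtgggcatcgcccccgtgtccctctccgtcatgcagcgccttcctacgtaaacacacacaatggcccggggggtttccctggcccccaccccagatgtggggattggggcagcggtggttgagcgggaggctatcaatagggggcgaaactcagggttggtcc
The HRAS window was 77.2% G and C and held 3 GC boxes, and the NRAS window was 54.4% with 2. The windows of ARAF (59.2%) and BRAF (64.8%) held 0. Over all 35116 promoter windows in the table, 42.6% held at least 1 GC box, and the median GC content was 58.0%. The word CCAAT, or ATTGG on the other strand, occurred 1 time in the HRAS window, 2 times in that of ARAF, 1 time in that of BRAF and 0 times in that of NRAS, and in 32.0% of all windows. None of the 4 held TATAAA or TTTATA, which 10.7% of all windows hold. Promoters matched 7 of the 8 genes by symbol, and RRAS, the gene with the largest rise, had no match. The window of NF1, which also rose and is not printed, was 67.2% G and C and held 0 GC boxes. These matches are descriptions of sequence.

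The 6-base word ACCCTA was searched for in the 8 genes because genes that hold it differed from the rest in these libraries. Genes with ACCCTA in the 3′ UTR (2657 of those tested, 21.4% of genes with a searched 3′ UTR) had a lower median log2 fold change, −0.16, than the 9786 genes without it, at 0.09. That contrast comes from the same libraries, so it is no independent reason for the choice of the word. It also carries no GC correction and was not adjusted for the length of the 3′ UTR. Of the 8 genes, 7 lack the word in the 3′ UTR, as do 78.6% of all tested genes with a searched 3′ UTR. All 8 lack it in the coding sequence, for which no share over all genes was computed. MRAS holds it 2 times in a 3′ UTR of 3265 bases, at positions 680 and 1835. The sites are shown, as DNA letters with the word in capitals, because MRAS is the exception.
MRAS, position 680: ggagggaaagagACCCTAcacatggcctag
MRAS, position 1835: aagtttccttagACCCTAtagtgttaagag
MRAS was not lower in siNSUN2, at 1.01 and 0.964 CPM, against 0.682 and 0.795 CPM in siControl, but its few counts leave a 95% interval that includes a fold of 0.836.

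The genes whose pattern over the 4 libraries lay nearest to that of RRAS, the member with the largest rise, were FOSB, PODXL and ARID3A. Likeness was the Euclidean distance between log2 CPM values centred on the mean of the 4 libraries, over 9590 genes, and it was 0.015, 0.065 and 0.094. FOSB, a subunit of AP-1, had 12.6 and 13.3 CPM in siNSUN2, against 4.42 and 5.22 CPM in siControl. PODXL, which encodes the sialomucin podocalyxin, had 24.4 and 25.7 CPM, against 8.5 and 9.6 CPM. ARID3A, a DNA-binding protein gene, had 66.2 and 74.2 CPM, against 25.6 and 28.5 CPM. With 4 libraries in 2 groups, such likeness says little more than that these genes rose by a like amount.

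Other genes of RAS signalling went in both directions. Of 97 tested genes in 8 lists ordered by role, 41 rose, 30 fell and 26 were not called, with a median log2 fold change of 0.10 (0.026 over all genes tested, with 27.1% higher and 25.5% lower). The balance was 37 higher and 20 lower after the GC correction, and it turned to 29 higher and 37 lower without siControl replicate 1, where 3720 of all genes were higher and 4695 lower. The lists were chosen with earlier results of these data known, and no list was tested as a set.

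Upstream of RAS, exchange factors and adaptors were divided, with 3 of 10 tested genes higher, 2 lower and a median of 0.03, and 2 higher, 2 lower and a median of −0.014 after the GC correction. SOS1, the main exchange factor for RAS below receptor tyrosine kinases, fell to 45.0 and 42.0 CPM in siNSUN2, against 68.8 and 69.8 CPM in siControl (log2 fold change −0.67, SE 0.048, edgeR adjusted p = 3.14e-06). The phosphatase gene PTPN11, which aids RAS activation, fell by 0.29 on the log2 scale (−0.11 after the GC correction). The adaptor genes GAB1 and SHC1 rose by 0.49 and 0.29, and SHC1 was not called after the correction (0.059, edgeR adjusted p = 0.354). GRB2, the adaptor that brings SOS1 to receptors, had a mean of 120 CPM in either group.

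All 10 tested GTPase-activating protein genes other than NF1, with partners of NF1, were called, 6 higher and 4 lower (median 0.31). After the GC correction, 3 rose and 4 fell, and the median was −0.07. RASA1, which encodes p120 RasGAP, rose to 215 and 211 CPM in siNSUN2, against 124 and 121 CPM in siControl (log2 fold change 0.80, SE 0.04, edgeR adjusted p = 4.13e-07). RASAL2 fell to 88.3 and 84.8 CPM, against 139 and 140 CPM in siControl (−0.69), and RASA2 fell by 0.67 (−0.41 after the correction). The GTPase-activating genes thus moved apart from one another, with NF1 and RASA1 higher and RASAL2 and RASA2 lower.

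RAS proteins are lipid-modified at their C terminus, cleaved, methylated and moved to membranes. Of 15 genes for these steps, 3 rose and 6 fell (median −0.07), and 5 rose and 2 fell after the GC correction. RCE1, the protease that trims prenylated RAS, rose to 30.9 and 28.0 CPM in siNSUN2, against 12.2 CPM in each siControl library (log2 fold change 1.27, SE 0.069, edgeR adjusted p = 6.32e-07). LYPLA2, a thioesterase gene, rose by 0.67 (0.20 after the correction). PDE6D, whose product carries prenylated RAS through the cytosol, fell by 0.86, to 7.39 ± 1.04 CPM in siNSUN2, against 13.5 ± 0.164 CPM in siControl (SD, n = 2 each). GOLGA7, a partner of the RAS palmitoyltransferase, fell by 0.30, and its log2 fold change was −0.084 after the correction (edgeR adjusted p = 0.159).

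Scaffolds and regulators of RAF included more falls than rises, with 6 of 16 higher and 8 lower (median −0.21), but after the GC correction 6 rose and 5 fell (median −0.02). PEBP1, an inhibitor of RAF, fell to 247 and 252 CPM in siNSUN2, against 337 and 345 CPM in siControl (log2 fold change −0.45, SE 0.039, edgeR adjusted p = 1.02e-05). YWHAQ, which encodes a 14-3-3 protein that binds RAF, and PPP1CC, a phosphatase catalytic subunit gene, each fell by 0.43 (−0.24 and −0.18 after the correction). The related subunit gene PPP1CA rose by 0.59 (0.20 after the correction).

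Below RAF, changes in genes of the MEK and ERK step were small. Of 6 genes, 5 rose and 1 fell (median 0.19), and after the GC correction 3 rose and 1 fell (median 0.055). MAPK3, which encodes ERK1, had 37.7 and 37.3 CPM in siNSUN2, against 28.1 and 30.3 CPM in siControl (log2 fold change 0.36, SE 0.055, edgeR adjusted p = 0.00048), but −0.10 after the GC correction (edgeR adjusted p = 0.157). MAP2K1, which encodes MEK1, rose by 0.22, and by 0.12 without siControl replicate 1, where it was not called (edgeR adjusted p = 0.066). LAMTOR3, a scaffold gene for MEK and ERK, rose by 0.29 (0.55 after the correction). IQGAP1, a scaffold of the same step, fell by 0.18 and was not called after the correction (−0.05, edgeR adjusted p = 0.239) or with no low-count filter (edgeR adjusted p = 0.112).

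Among other RAS effectors, 6 of 14 genes rose and 3 fell (median 0.16), and after the GC correction 6 rose and 0 fell (median 0.19). RASSF1 rose by 0.82, RIN1, a RAS effector and RAB5 exchange factor gene, by 1.05, and the PI3-kinase catalytic subunit gene PIK3CD by 0.70. After the correction these rises were 0.43, 0.36 and 0.40. PIK3CB fell by 0.22, a change that was 0.0046 after the correction (edgeR adjusted p = 0.934).

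Other GTPases of the RAS subfamily had 5 rises and 1 fall among 11 tested genes (median 0.10), and 6 rises and 1 fall after the GC correction (median 0.22). RIT1 rose to 85.2 and 86.1 CPM in siNSUN2, against 48.6 and 50.5 CPM in siControl (log2 fold change 0.79, SE 0.043, edgeR adjusted p = 6.37e-07). RAP2C rose by 0.32 (0.54 after the GC correction) and RAP2B by 1.00, and RAP2B narrowly lost its call without siControl replicate 2 (log2 fold change 1.15, edgeR adjusted p = 0.0559). RASL11A was near the floor, at 0.544 and 0.321 CPM in siNSUN2, against 0.824 and 1.02 CPM in siControl. Its fall (log2 fold change −1.05, edgeR adjusted p = 0.0378) was no longer called without siNSUN2 replicate 2 (−0.76) or siControl replicate 2 (−0.90), without robust estimation (−1.05, edgeR adjusted p = 0.0541) or with DESeq2 (−1.08, adjusted p = 0.101).

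Genes that ERK signalling is known to induce did not move as one. Of 15 such genes, 7 were higher, 5 lower and 3 not called (median 0.40), and after the GC correction 6 were higher and 5 lower (median 0.48). IER3 rose to 172 CPM in each siNSUN2 library, against 90.5 and 94.3 CPM in siControl (log2 fold change 0.89, SE 0.042, edgeR adjusted p = 2.94e-07). CCND1, the cyclin D1 gene, rose by 0.78, and DUSP5, which encodes a nuclear ERK phosphatase, by 0.76. ETV5, an ETS factor gene, fell to 22.4 and 21.1 CPM in siNSUN2, against 60.5 and 65.9 CPM in siControl (−1.54, SE 0.059, edgeR adjusted p = 1.17e-07). DUSP6, the cytoplasmic ERK phosphatase gene often read as a gauge of ERK activity, had means of 47.5 CPM in siNSUN2 and 46.0 CPM in siControl (log2 fold change 0.045, edgeR adjusted p = 0.545). DUSP6 and GRB2 were named after their values were seen.

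**Figure D5:**
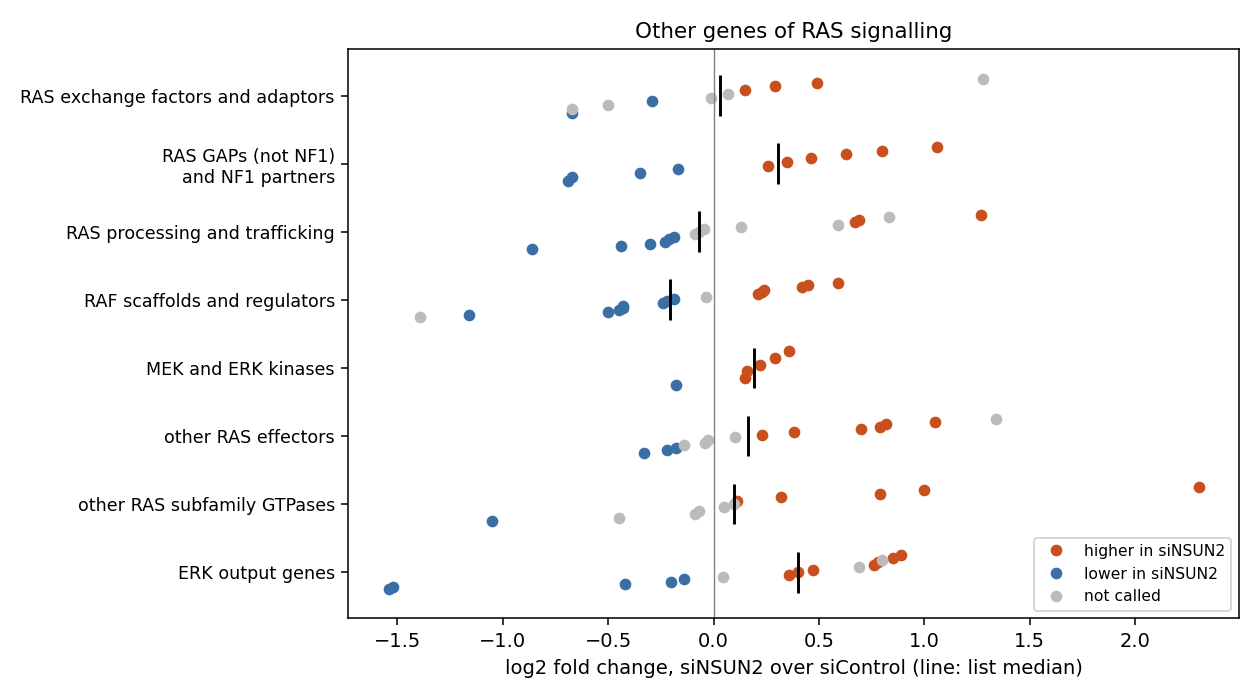
Log2 fold change, siNSUN2 over siControl (horizontal axis), of the 97 tested genes in 8 lists of RAS signalling (rows). Orange points rose, blue points fell, grey points did not pass the test, and black lines are list medians, which run from −0.21 for RAF scaffolds and regulators to 0.40 for ERK output genes.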

How the data were processed

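The data are raw counts for Ensembl genes, deposited by the authors with 1 column per library (4 in all). Per the submitters' processing notes, HISAT2, HTSeq and the build hg19 were used, with no version, annotation or strand setting given in the sources used here. Genes were matched to symbols by Ensembl ID. GENCODE release 29 (GRCh38) gave transcript sequence, length and GC content, through IDs only. The test was edgeR 4.0.16 in R 4.3.3 (glmQLFit, robust, TMM factors of 0.985 to 1.02, filterByExpr), two-sided, with Benjamini-Hochberg adjustment over 16889 genes. The F statistic gave standard errors, and 95% intervals from its t quantiles. The GC correction used offsets from loess trends on transcript GC content and length (span 0.5), fitted per library on genes above a log2 CPM of 1, for the 96.4% of genes with known values. The fitting was tested on counts simulated from siControl means. It recovered 12 of 60 genes changed 1.5-fold, 67 of 73 changed 2-fold and 67 of 67 changed 4-fold, with 6 false calls. Every simulated gene had the same dispersion and only 200 were changed, whereas 8880 genes were called in the real libraries. The recovered shares thus do not give the chance of calling a change of that size in the 8 genes. Libraries of a group were further apart than counting noise allows, with a chi-square of 13.8 (siNSUN2) and 21.1 (siControl) for each degree of freedom. The 8 genes, the lists and the tests were chosen with earlier results of these data known. Named genes were the 8 members, in each list up to 4 called genes with the smallest p (at least 1 in each direction), the 3 genes nearest to the member with the largest called rise and, had one been called, fall (log2 CPM of at least 3), and NSUN2; 1 gene the rule names is not reported here. Alternatives were DESeq2 1.42.0, limma-voom (limma 3.58.1), other scalings and filters, GC and length offsets, thinning, a replicate block and each library left out. Python 3.11.15 was used for summaries.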

Additional observations from a re-analysis of the deposited data

How the results depend on the processing

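Between 5 and 6 of the 8 genes were called under each of the 18 alternatives. Outside the GC correction (GC and length offsets), 16 alternatives kept the direction of all 8 that were tested; MRAS fell below the filter at a mean of 5 CPM. RRAS stayed between 0.88 and 1.51 on the log2 scale. With the GC correction, HRAS went to −0.074 and MAPK3 to −0.10, and PIK3CB to 0.0046; with GC correction and replicate block together the values were −0.074, −0.093 and 0.0036. ARAF was not called (0.045 and 0.046) and RRAS2 was (0.36 in each). NRAS lost its call with no filter on low counts (edgeR adjusted p = 0.0731) or without siControl replicate 1. Leaving out 1 library gave 7723 to 8415 called genes, against 8880. The replicate numbers are shared in the labels with no stated pairing. Deviations of same-numbered libraries correlated at 0.0645 over 9702 genes. A single correlation over all these genes cannot tell whether same-numbered libraries share a batch. With the replicate block, 9815 genes were called, among them 6 of the 8 members, and 76 other RAS pathway genes, against 71. Of the 8, depth limits MRAS most.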
